A study of Mus musculus with 8 samples.

Results

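Branched-chain and other amino acid breakdown was followed through 40 named genes, matched by symbol to the Ensembl identifiers of both deposited tables. Of these, 37 had values among the 24375 genes listed in either table, and Acadsb, Aldh4a1 and Oat were not analysed here. RNA came from livers of Cpeb4 knockout mice and wild-type mice, in 4 groups of 2 libraries: knockout ER, wild-type ER, knockout liver and wild-type liver. The product of Cpeb4 binds an element in the 3′ ends of mRNAs and controls how long their poly(A) tails are and how well they are translated. The endoplasmic reticulum (ER) was isolated with a commercial kit from livers of mice fasted overnight, whereas the feeding state behind the total liver RNA is not stated, nor are strain, allele, sex and age.

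The liver breaks down most amino acids and turns their carbon into glucose or ketone bodies, and fasting raises that flux. Branched-chain amino acids are an exception. They are first transaminated mainly outside hepatocytes, and their keto acids are then oxidised in mitochondria by a dehydrogenase complex that a kinase switches off and a phosphatase switches on. Serine, histidine, proline, glutamine, aspartate and alanine yield pyruvate, glutamate or oxaloacetate, whose carbon can enter gluconeogenesis. The 40 genes were therefore read as a branched-chain group of 22, a gluconeogenic group of 17, and Aass, which starts lysine breakdown and belongs to neither.

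The values are 2 tables of the authors' own genotype comparison, a larger one of 23634 genes and a smaller one of 21201 genes. Neither names its RNA preparation, so none was assigned to ER or total liver, and no value per library is given. Each table rests on 4 libraries, 2 on each side, whose relative depths, read from genes with a single read, lay between 0.717 and 1.26 in the larger and between 0.839 and 1.64 in the smaller table. The mean counts summed to 37351703 in the larger and 36848665 in the smaller table. The comparison was read as knockout over wild type because Cpeb4 had the smallest p of each table, at log2 fold changes of -1.16 ± 0.11 and -1.10 ± 0.13 (SE) in the authors' deposited larger and smaller tables. Every direction below rests on that reading. The authors' model shrank fold changes towards 0, so they understate differences, and p-values measure the spread between 2 libraries per group, which the labels do not tie to separate mice. Hepatocyte markers such as Alb were abundant and together made up 6.80% and 3.33% of the summed mean count in the larger and smaller table. Summed markers of Kupffer cells came to 0.0174% and 0.0121%, of endothelial cells to 0.00328% and 0.00159%, and of stellate cells to 0.00705% and 0.00402%.

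CPEB4 is known to bind the cytoplasmic polyadenylation element, searched here as TTTTAT or TTTTAAT in the longest annotated 3′ UTR of each gene. The elements of the members that the results turn on are shown in capitals, read from GENCODE M21 transcripts (mouse GRCm38) with 10 bases on each side, because they are the sequence through which the deleted protein is known to act.
Got1, aspartate aminotransferase of the cytosol, chromosome 19: gtctgttctgTTTTATttaaaaaata
Gpt2, alanine aminotransferase of mitochondria, chromosome 8, first element: tagaatatttTTTTATatttttgtaa
Gpt2, second element: gtccaaaaatTTTTATaagtgtcttc
Gls2, liver glutaminase, chromosome 10: ctgacagcaaTTTTATagacagagta
Dbt, core subunit of the branched-chain dehydrogenase, chromosome 3, element nearest the end: gtatctactaTTTTATaatttgattt

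The Got1 element begins 41 bases before the end of a 3′ UTR of 666 bases, and that of Gls2 48 bases before the end. Gpt2 holds 2 elements far from the end, in a 3′ UTR of 1934 bases, and Dbt holds 6. None was found in Aass, Hsd17b10, Sdsl or Bcat2, the other genes described below in full. Over all members with values, 18 of 37 3′ UTRs held an element, namely 11 of 21 in the branched-chain group and 7 of 15 in the gluconeogenic group. Among genes tested in the larger table the share was 62.8%, with a median 3′ UTR of 1173 bases against 666 bases for the members. Per length the members held 1.14 elements per kilobase of 3′ UTR, against 1.33 per kilobase over those genes. By group it was 1.33 per kilobase in the branched-chain and 0.855 in the gluconeogenic group. No such count says whether the protein binds there.

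The promoters of Got1, the member past the gene test, and of Aass, the member with the next largest log2 fold change there, are shown from 250 bases before to 50 after the gene start (RefSeq, GRCm38.p6, minus strand of both chromosomes). Capitals mark any short cyclic AMP response motif (TGACG), forkhead (TGTTTAC), short glucocorticoid response motif (AGAACA), C/EBP palindrome (TTGCGCAA) or GC box (GGGCGG) on either strand.
Got1, chr19:43524556-43524855: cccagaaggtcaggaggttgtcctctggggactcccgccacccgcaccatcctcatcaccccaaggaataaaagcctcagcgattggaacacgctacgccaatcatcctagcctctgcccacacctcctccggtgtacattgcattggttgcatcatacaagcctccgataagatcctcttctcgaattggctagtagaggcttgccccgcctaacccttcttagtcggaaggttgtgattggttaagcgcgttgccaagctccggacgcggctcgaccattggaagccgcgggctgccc
Aass, chr6:23132937-23133236: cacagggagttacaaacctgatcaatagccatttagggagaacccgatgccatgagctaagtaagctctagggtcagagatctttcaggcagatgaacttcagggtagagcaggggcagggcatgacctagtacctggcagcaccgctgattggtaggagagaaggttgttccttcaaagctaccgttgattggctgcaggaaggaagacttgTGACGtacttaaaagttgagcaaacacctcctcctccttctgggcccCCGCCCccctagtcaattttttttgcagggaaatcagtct

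None of these letters occurred in the Got1 window, and Aass held 1 short cyclic AMP motif and 1 GC box. The GC box was the motif that divided the groups most. It lay in 11 of 19 branched-chain promoters and 3 of 11 gluconeogenic ones, against 35.7% of all 32851 windows of the same length. The motif TGACG lay in 4 of 19 and 1 of 11, against 20.8% of all windows. The full cyclic AMP element TGACGTCA, which contains the short motif, was in no member window and is present in 1.79% of all windows. AGAACA lay in 4 of 19 and 1 of 11, against 19.0% of all windows, and TGTTTAC in 2 of 19 and 0 of 11, against 3.65%. TTGCGCAA was in no member window and in 0.183% of all.

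The gluconeogenic group stood at higher log2 fold changes in the knockout than the branched-chain group in both tables, and a single gene, Got1, passed the test. In the authors' deposited larger table, the branched-chain group had a median of 0.03 over 21 genes, the gluconeogenic group 0.15 over 15, and all 14180 tested genes -0.00. In the smaller table the medians were 0.02 over 20 branched-chain genes, 0.12 over 15 gluconeogenic genes and 0.00 over all 11661. Members past an adjusted p of 0.05 numbered 0 of 37 in the larger table, where 0.296% of all genes passed and 0.0917% passed upwards, and 1 of 36 in the smaller, where 0.266% passed and 0.163% upwards (the authors' DESeq2 Wald test). At an unadjusted p under 0.05, 5 members were higher and 0 lower in the larger table, where 3.62% of all genes lay under that limit and 1.63% did so with higher values. In the smaller, 5 were higher and 1 lower, against 4.11% of all genes, 2.14% being higher.

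The signs, drawn from the same fold changes, gave the same order of the groups. In the gluconeogenic group 13 of 15 and 12 of 15 genes lay above 0 in the larger and smaller table, against 13 of 21 and 12 of 20 in the branched-chain group. Of all tested genes, 49.6% and 50.3% lay above 0. Above the 90th percentile of log2 fold change over all tested genes lay 12 of 15 and 6 of 15 gluconeogenic genes, and 2 of 21 and 3 of 20 branched-chain genes. Members are abundant, and among genes with a mean of at least 1000 counts 561 of 4526 and 408 of 3927 lay above it. No test was run between the groups, since genes are not replicates and the members were chosen with earlier results of these data known.

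**Figure D1:**
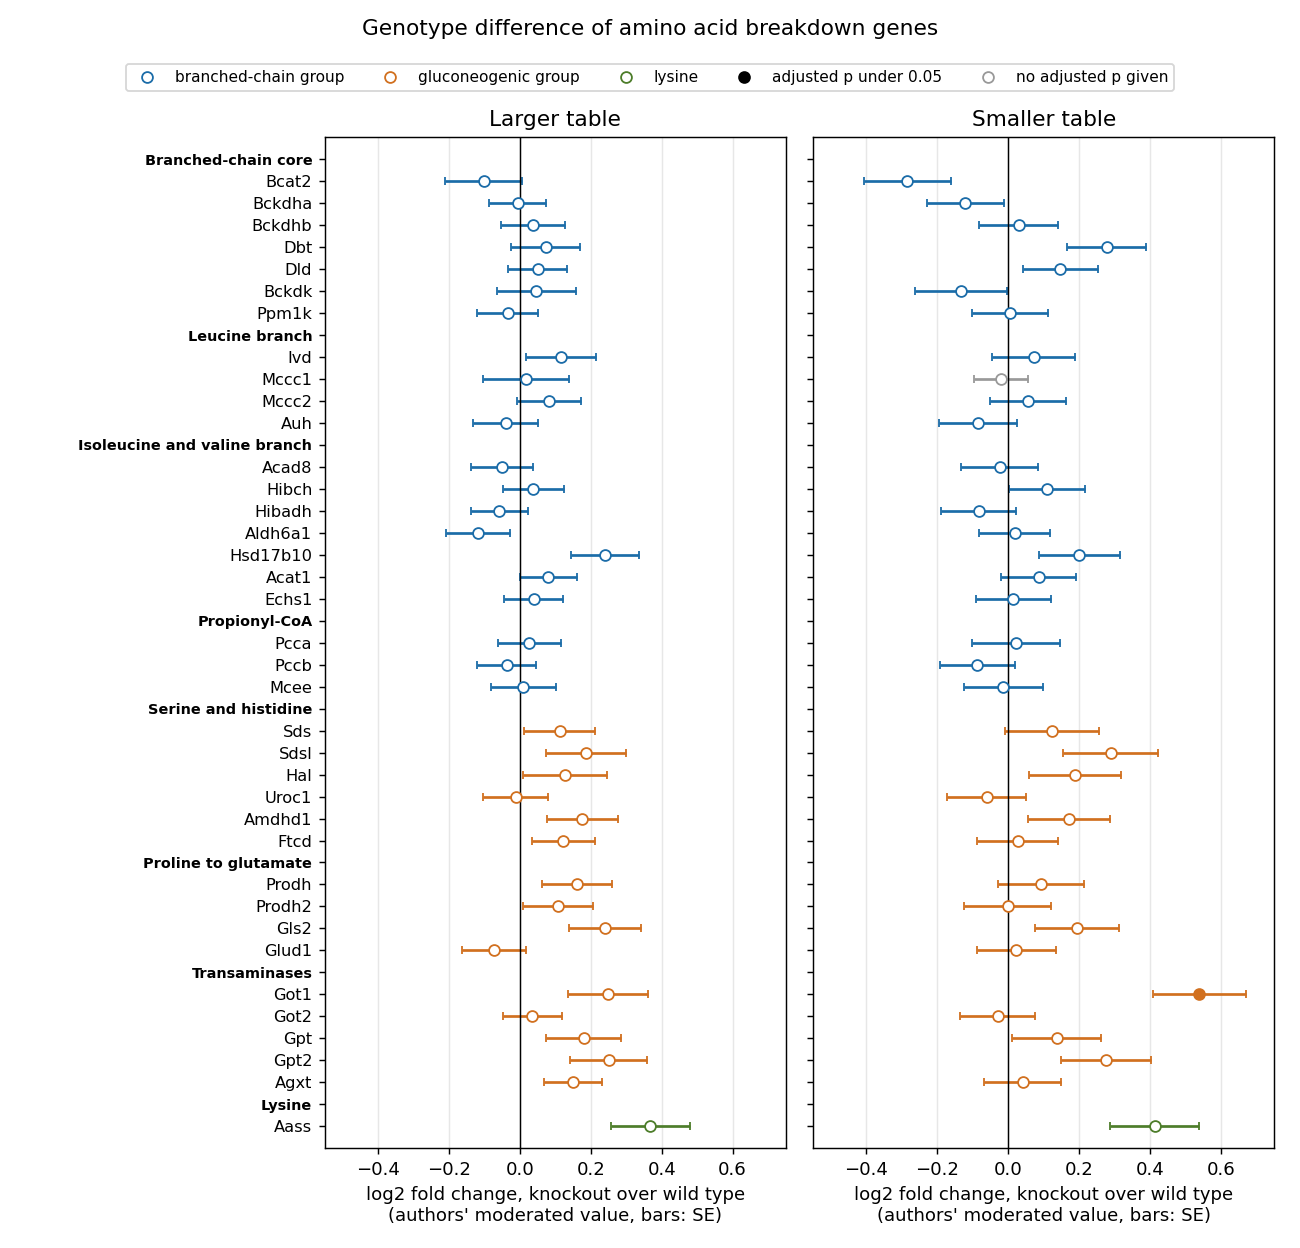
Authors' log2 fold change (horizontal, knockout over wild type) with its SE for each member, by role, in the larger and the smaller table; filled points passed an adjusted p of 0.05. Only Got1 in the smaller table is filled, and 13 of 15 and 12 of 15 gluconeogenic genes lie right of 0.

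**Figure D2:**
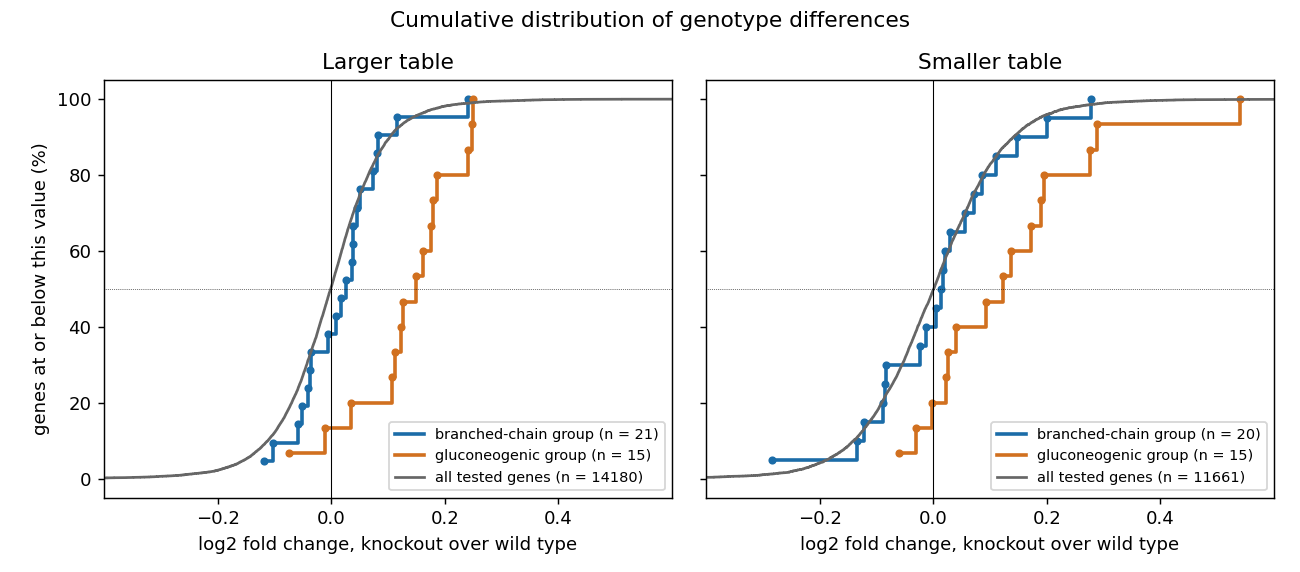
Percentage of genes (vertical) at or below each log2 fold change (horizontal, knockout over wild type) for the branched-chain group, the gluconeogenic group and all tested genes. The branched-chain curve runs close to that of all genes, with medians of 0.03 and 0.02, and the gluconeogenic curve lies to the right, with medians of 0.15 and 0.12.

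Among the transaminases, which move amino groups onto keto acids, Got1 rose in the knockout in the smaller table. Got1 (ENSMUSG00000025190; GRCm38 chromosome 19, 43499752 to 43524605, minus strand, protein coding) makes aspartate and oxaloacetate interchangeable in the cytosol. Its log2 fold change was 0.54 ± 0.13 in the authors' deposited smaller table, a 1.45-fold increase at a mean count of 36676 (adjusted p = 0.0232). In the authors' deposited larger table it was 0.25 ± 0.11 at a mean of 32000, with an unadjusted p of 0.0285, and it did not pass. The difference between the tables was -0.29 ± 0.17 (larger minus smaller, z test, unadjusted p = 0.094) and did not pass either. In the smaller table the relative depths were 0.839 and 1.64 on the knockout side and 0.839 and 0.870 on the wild-type side, and the part of that spread was not tested. Got2, the mitochondrial counterpart at a similar mean count, had 0.03 ± 0.08 and -0.03 ± 0.11 in the authors' deposited larger and smaller tables. About 20.3% of the 31-base words of Got2 occur in another annotated gene, the highest share of any member with values, so its reads could be split.

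The alanine aminotransferases, which link alanine to pyruvate, were both above 0 without passing. Gpt2, the mitochondrial form (ENSMUSG00000031700; chromosome 8, 85492576 to 85527560, plus strand), had 0.25 ± 0.11 and 0.28 ± 0.13 in the authors' deposited larger and smaller tables, with unadjusted p of 0.0211 and 0.0305. Gpt, the cytosolic form, had 0.18 ± 0.10 and 0.14 ± 0.13 in the same deposited tables. Agxt, which detoxifies glyoxylate in peroxisomes, had 0.15 ± 0.08 and 0.04 ± 0.11 in the authors' deposited tables. The mitochondrial form thus stood higher in the alanine pair and the cytosolic form in the aspartate pair, differences that were not tested.

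Serine and histidine breakdown lay above 0 apart from 1 step. Sds, the serine dehydratase that forms pyruvate, had 0.11 ± 0.10 and 0.12 ± 0.13 in the authors' deposited larger and smaller tables. Its paralog Sdsl (ENSMUSG00000029596; chromosome 5, 120458186 to 120472810, minus strand) had 0.19 ± 0.11 and 0.29 ± 0.13 in the authors' deposited tables (unadjusted p = 0.102 and 0.0318). The paralogs are neighbours, transcribed away from each other with 3715 bases between them. Of the 4 histidine enzymes in order of action, Hal had 0.13 and 0.19, Uroc1 -0.01 and -0.06, Amdhd1 0.18 and 0.17 and Ftcd 0.12 and 0.03 in the authors' deposited tables. Uroc1, the urocanate hydratase, was the one below 0 in both, and each of these values lay within 2 of its standard errors. Hal and Amdhd1 are neighbours too, 4033 bases apart on chromosome 10 and transcribed towards each other.

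Of 4 glutamine, glutamate and proline enzymes with values, 3 lay above 0 in each table. Gls2, which releases glutamate and ammonia from glutamine in the liver (ENSMUSG00000044005; chromosome 10, 128194457 to 128210004, plus strand), had 0.24 ± 0.10 and 0.20 ± 0.12 in the authors' deposited larger and smaller tables (unadjusted p = 0.0184 and 0.101). Glud1, the next enzyme, which turns glutamate into 2-oxoglutarate, had -0.07 ± 0.09 and 0.02 ± 0.11 in the authors' deposited tables. Prodh, which opens proline breakdown, had 0.16 ± 0.10 and 0.09 ± 0.12 there. Prodh2, which oxidises hydroxyproline, had 0.11 ± 0.10 and -0.00 ± 0.12 in the same deposited tables. None of the 4 passed.

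Aass had the largest log2 fold change of any member in the larger table and the next largest after Got1 in the smaller. It encodes the bifunctional aminoadipate-semialdehyde synthase that carries out the first steps of lysine breakdown in mitochondria (ENSMUSG00000029695; chromosome 6, 23072173 to 23132986, minus strand). The authors' deposited tables gave 0.37 ± 0.11 and 0.41 ± 0.13, or 1.29-fold and 1.33-fold, at mean counts of 21443 and 25225. The unadjusted p-values were 0.000989 and 0.00101, and over all genes Aass did not pass (adjusted p = 0.18 and 0.21). By log2 fold change it ranked number 31 of 14180 and number 35 of 11661 tested genes from the top.

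At the opening steps, branched-chain genes lay on both sides of 0. They ranged from -0.10 (Bcat2) to 0.07 (Dbt) in the larger table and from -0.28 (Bcat2) to 0.28 (Dbt) in the smaller. Bcat2, the mitochondrial branched-chain transaminase (ENSMUSG00000030826; chromosome 7, 45570153 to 45589711, plus strand), had -0.10 ± 0.11 in the authors' deposited larger and -0.28 ± 0.12 in the smaller table, with unadjusted p of 0.345 and 0.0215. Dbt, the transacylase core of the dehydrogenase complex (ENSMUSG00000000340; chromosome 3, 116513070 to 116549981, plus strand), had 0.07 ± 0.10 and 0.28 ± 0.11 in the authors' deposited tables (unadjusted p = 0.455 and 0.0126). Neither passed over all genes. The other subunits, Bckdha, Bckdhb and the shared Dld, had -0.01, 0.04 and 0.05 in the authors' deposited larger table and -0.12, 0.03 and 0.15 in the smaller. The 4 subunits thus spanned 0.08 log2 units in the larger and 0.40 in the smaller table. Of the regulators, the kinase Bckdk had 0.05 ± 0.11 and -0.13 ± 0.13, and the phosphatase Ppm1k -0.03 ± 0.09 and 0.00 ± 0.11 in the same deposited tables.

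The branches after the dehydrogenase also held genes on both sides of 0. In the leucine branch, Ivd, Mccc2 and Auh had 0.12, 0.08 and -0.04 in the authors' deposited larger table and 0.07, 0.06 and -0.09 in the smaller. In the isoleucine and valine branch, Hsd17b10 (ENSMUSG00000025260; chromosome X, 152001845 to 152004442, plus strand) stood highest. It encodes a mitochondrial dehydrogenase of isoleucine breakdown that is also a subunit of mitochondrial RNase P. The authors' deposited tables gave 0.24 ± 0.10 and 0.20 ± 0.11 (unadjusted p = 0.0119 and 0.0803), and it did not pass. The other 6 genes of this branch with values (Acad8, Hibch, Hibadh, Aldh6a1, Acat1 and Echs1) lay between -0.12 and 0.08 in the larger and between -0.08 and 0.11 in the smaller table. Aldh6a1, the lowest of them in the larger table, is described below as uncertain. The propionyl-CoA genes Pcca, Pccb and Mcee, on which isoleucine and valine converge, lay between -0.04 and 0.03 and between -0.09 and 0.02 in the authors' deposited tables.

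The errors of the branched-chain values are on the moderated scale, so intervals drawn from them do not bound the true difference. Bcat1, a gene outside the members, had an interval of -0.021 to 0.034 at a mean of 0.152 counts in the smaller table. Mccc1, described below as uncertain, is among the branched-chain genes counted in the larger table. The 95% interval, on the moderated scale, lay within 0.5 log2 units of 0 for 21 of 21 branched-chain genes in the larger table and 19 of 20 in the smaller, Bcat2 being the exception. For the gluconeogenic group it did for 15 of 15 and 12 of 15 genes. Aass reached beyond that bound in both tables. Over all tested genes, 13983 of 14180 and 11186 of 11661 intervals lay within it.

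Between the tables, 0 of the 36 members tested in both differed at an adjusted p of 0.05, where 0.0172% of 11604 genes did (z test, Benjamini-Hochberg). At an unadjusted p under 0.05 the count was also 0 of 36, against 0.138% of all genes. The z test treats the tables as independent, and the z values had an SD of 0.535, so it calls few differences.

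The 2 groups also stood at different levels, taking knockout and wild-type libraries together. Exon length was the union of all exons annotated for a gene. More annotated exon sequence thus lowers the value per kilobase. Per kilobase of exon, the branched-chain group had a median of 1340 counts in the larger and 1630 in the smaller table, and the gluconeogenic group 7356 and 7751. In the branched-chain group 9 of 21 genes stood above the 90th percentile of tested genes in each table, and in the gluconeogenic group 13 of 15 and 14 of 15. The highest branched-chain levels were those of Hsd17b10 at 15284 and 26415 counts per kilobase and Acat1, the ketothiolase that ends isoleucine breakdown and also serves ketone bodies, at 10215 and 15414. Apart from Mccc1 and Aldh6a1, described below, the lowest were the kinase Bckdk at 164 and 151 and the transaminase Bcat2 at 215 and 211 counts per kilobase. Together the 37 genes made up 1.41% and 1.67% of the summed mean count.

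Subunits of 1 enzyme did not have equal levels. In the dehydrogenase, Bckdha had 7490 counts per kilobase of exon in the larger table, 4.95 times Bckdhb, the lowest subunit there. In the smaller table Bckdha had 11491, 9.97 times Dbt. For propionyl-CoA carboxylase, Pccb was 7.22 and 14.8 times Pcca. Exon length adds to the ratios over Pcca and Dbt, at 5.21 kilobases for Pcca, 2.77 for Pccb, 3.35 for Dbt and 1.90 for Bckdha. Without division by length, Pccb had mean counts of 9780 and 12668 in the authors' deposited larger and smaller tables, and Pcca 2546 and 1611. About 61.7% of the exon bases of Bckdha, and 29.6% of those of Sds, also lie in an exon of another annotated gene, and no source used here says if reads were counted by strand.

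**Figure D3:**
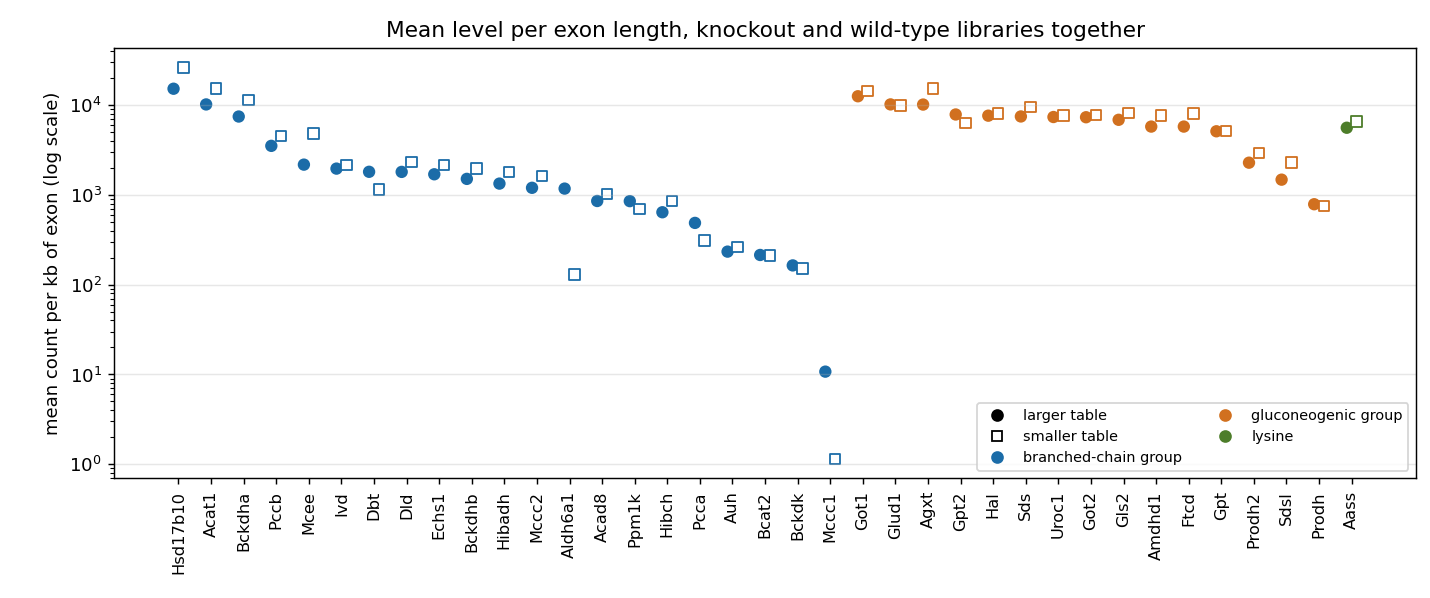
Mean count per kilobase of exon (vertical, log scale) of each member with values in the larger and the smaller table, ordered within its group by the larger table. Most gluconeogenic genes sit near the top, around medians of 7356 and 7751, and Mccc1 lies far below its partner Mccc2 in both tables.

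Mccc1 and Aldh6a1 stood apart from the other members in how the tables counted them. Mccc1, one subunit of methylcrotonoyl-CoA carboxylase in leucine breakdown, had a mean of 118 counts in the authors' deposited larger and 12.6 in the smaller table, where no adjusted p is given. Its partner Mccc2 had 3371 and 4566 in the same deposited tables. Per kilobase of exon, Mccc2 was 112 times Mccc1 in the larger and 1420 times in the smaller table. Exon length adds to these ratios, since Mccc1 has 10.95 kilobases of annotated exon and Mccc2 has 2.80. Aldh6a1, the methylmalonate-semialdehyde dehydrogenase of valine breakdown, had 6815 and 756 counts in the authors' deposited tables. The ratio of larger over smaller table was 9.37 for Mccc1 and 9.01 for Aldh6a1, against 0.45 (Mcee) to 1.58 (Pcca) for the other 35 members. The tables were normalised separately, so this ratio is a description. Of 10926 genes with a mean of at least 100 in the larger table, 6.50% had a ratio over 8. Among genes with over 5% of their exon bases in another gene, the class of both, the share was 4.11%. It was 19.5% among genes with over 5% shared words, a class that holds neither, and 1.33% among genes with at most 5% of both shared words and overlapping exon bases. Mccc1 and Aldh6a1 have 0.906% and 0.276% shared words, and 5.60% and 18.6% of their exon bases lie in another gene. The part of overlap in these counts was not tested, and the genotype values of both genes are uncertain. In the authors' deposited larger and smaller tables, Mccc1 had log2 fold changes of 0.02 ± 0.12 and -0.02 ± 0.08. Those of Aldh6a1 were -0.12 ± 0.09 and 0.02 ± 0.10.

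**Figure D4:**
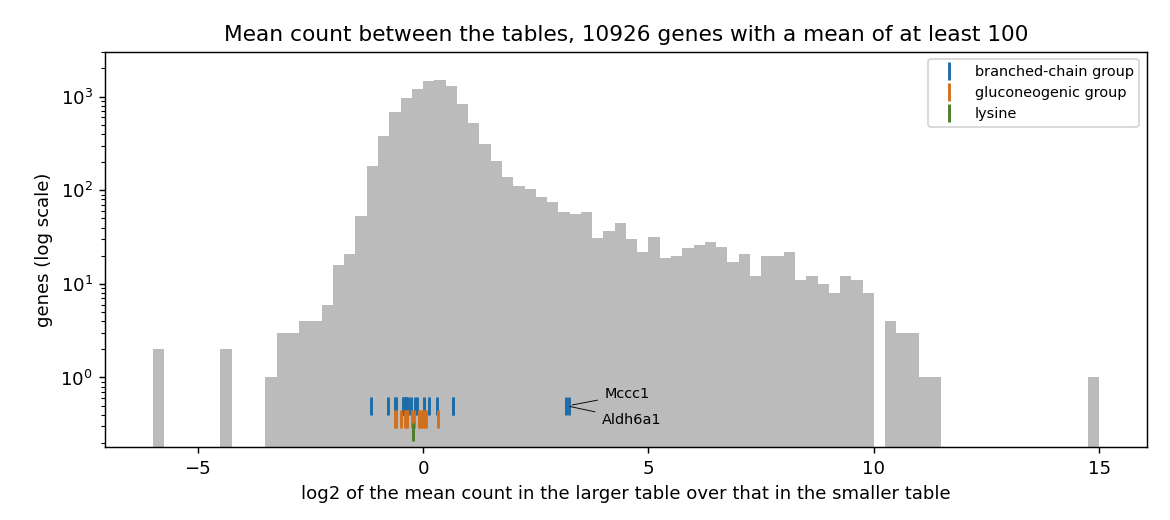
Number of genes (vertical, log scale) by log2 ratio of mean count, larger over smaller table (horizontal), with each member as a tick under the histogram. Mccc1 and Aldh6a1, at ratios of 9.37 and 9.01, lie apart from the other 35 members.

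Related genes outside the 40 were taken from lists chosen with earlier results known. Of 17 gluconeogenic enzymes and regulators, 2 rose in the larger and 3 in the smaller table and 0 fell in either, where 0.0917% and 0.163% of all genes passed upwards. Tat, the tyrosine aminotransferase, and Ppargc1a, a coactivator of fasting genes, rose in both tables, and G6pc, the glucose-6-phosphatase, in the smaller. The authors' deposited tables gave Tat 0.70 ± 0.11 and 0.72 ± 0.12 (adjusted p = 4.71e-07 and 5.31e-06) and Ppargc1a 0.51 ± 0.12 and 0.67 ± 0.13 (adjusted p = 0.00648 and 0.000667). In the same deposited tables G6pc had 0.25 ± 0.12 and 0.58 ± 0.13, with adjusted p of 0.00614 in the smaller. Pck1 and Pcx, the enzymes that turn pyruvate carbon into phosphoenolpyruvate through oxaloacetate, had 0.12 and -0.10 in the authors' deposited larger table and 0.22 and -0.18 in the smaller, without passing. Of 10 mitochondrial carriers, Slc25a15, the ornithine carrier, rose by 0.48 ± 0.12 in the authors' deposited smaller table (adjusted p = 0.0238). In the larger it had 0.40 ± 0.11 (adjusted p = 0.0591). Of 27 further genes of lysine and other amino acid breakdown, 1 rose in the larger table (Tat) and 2 in the smaller (Tat and Cth, which makes cysteine), and 0 fell. Cth had 0.23 ± 0.11 and 0.55 ± 0.13 in the authors' deposited tables (adjusted p = 0.0191 in the smaller), and Tat is on both lists. Of 15 further branched-chain genes, 0 passed in either table, 4 and 5 lay above 0, and the medians were -0.02 and -0.08 in the larger and smaller table.

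Markers of hepatocytes near the portal vein mostly lay above 0, as did the gluconeogenic group. Enzymes such as Hal, Sds and Gls2 are known to be concentrated there. The marker list also holds urea cycle enzymes, namely Arg1, Ass1, Asl and Cps1, so it does not stand for position alone. The median of this list was 0.22 and 0.32 over 8 genes in the authors' deposited larger and smaller tables. Of these markers 6 and 7 lay above 0 and 0 passed the test. An unadjusted p under 0.05 was reached by 3 higher markers and 1 lower marker in the larger table. In the smaller it was reached by 5 higher markers and 0 lower ones. Cyp2f2 stood lowest, at -0.18 and -0.20 in the authors' deposited tables. Their summed level was 1.69% and 1.90% of the summed mean count, the lowest marker, Cdh1, standing at 0.00101% and 0.000384%. Markers of hepatocytes near the central vein had medians of 0.03 and -0.04 over 9 and 8 genes, with 0 past the test, and general hepatocyte markers 0.00 and -0.01 over 9. Kupffer cell markers had medians of -0.06 and -0.09 in the authors' deposited tables, with 1 of 9 and 0 of 9 above 0. Stellate cell markers had medians of -0.08 and -0.05, with 0 of 5 and 1 of 4 above 0, and 0 of either list passed. Endothelial markers had medians of 0.01 and 0.04 in the authors' deposited tables, with 3 of 5 above 0 in each. Bile duct (cholangiocyte) markers had -0.05 and -0.05, with 1 of 3 above 0 in each. No endothelial or bile duct marker passed. Red cell genes, summing to 0.0314% and 0.0383% of the mean counts, had medians of -0.30 and -0.40 over 4 genes in the authors' deposited tables, all 4 below 0, each with an unadjusted p under 0.05, and 0 past the test. Levels per genotype are not given for any list. In bulk RNA, fewer cells of a type and less RNA per cell cannot be told apart, and the part of zonation or of these other cell types in the gluconeogenic values was not tested.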

How the data were processed

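RNA of mouse livers and of their purified ER was sequenced, per the labels' protocols. The submitters' processing notes name STAR 2.3.0e, DESeq2 1.6.3 and mm10, with no roles. No source used here gives the annotation, counting tool or strand setting. For each gene the authors deposited a mean signal (counts divided by size factors), a log2 fold change and SE, a Wald score, and both raw and adjusted p-value, per the file headers. Genes with a mean under 17.4 (larger) and 31.9 (smaller) have no adjusted p and were not tested, here 9454 and 9540.

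The planned test of values per library was replaced by the authors' Wald test, since the tables hold none. Members and lists were chosen with earlier results of these data known. Named in full are members past adjusted p 0.05, or past unadjusted 0.05 in both tables, or among the 5 largest changes of a table, and list genes past the test; Pck1 and Pcx were chosen after their values were seen. The 3′ UTR search was chosen after the data were examined. Symbols, exon lengths, overlaps and shared 31-base words came from GENCODE M21 (23484 of 23634 and 21080 of 21201 identifiers matched), and promoters from RefSeq (31 of 37 members matched; unmatched were Acat1, Dbt, Gls2, Gpt, Sds and Sdsl). Alternatives changed the mean filter, the threshold, shared-sequence genes, the group summary and the covariance of the tables. The difference test was tested on simulated data with independent tables. The log2 fold changes of the deposited tables had a correlation of 0.685 across genes, so the simulation does not show how sensitive the test is here. Python 3.11.15, pandas 2.3.3, numpy 2.4.6 and scipy 1.17.1 were used.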

Additional observations from a re-analysis of the deposited data

How the results depend on the processing

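The count of members past the test was 0 in the larger and 1 in the smaller table with no filter on the mean, with a minimum mean of 100 counts, without genes sharing over 25% of their 31-base words, and at an adjusted p of 0.1. Unadjusted p-values under 0.05 numbered 5 among members of the larger table. The branched-chain median lay between 0.01 and 0.03 (larger) and between -0.00 and 0.02 (smaller), below 0 without the shared enzymes Dld, Hsd17b10, Acat1 and Echs1. The gluconeogenic median lay between 0.12 and 0.16 and between 0.11 and 0.13, also without Got1, an alternative chosen after seeing the data. All these shifts were under the members' median SE. That is the SE of a single gene and not of a group median, so it is a loose limit and no measure of stability. With covariance between the tables set by their correlation across genes, 0 members differed. No paired analysis was possible because the tables hold no values per library, and leaving out each replicate was not run for that reason. Mccc1, whose mean in the smaller table is under the tested range, was the member not tested there.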

Other observations

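Other enzymes of amino acid breakdown that share steps with the members stood on both sides of 0. Gldc, the glycine decarboxylase that feeds serine and glycine carbon into one-carbon metabolism, had 0.39 ± 0.11 and 0.44 ± 0.12 in the authors' deposited larger and smaller tables, with adjusted p of 0.0839 and 0.0965, and did not pass. Hao1, the glycolate oxidase that makes the glyoxylate which Agxt removes, had -0.27 ± 0.09 and -0.21 ± 0.11 in the same deposited tables, with unadjusted p of 0.00288 and 0.0647, while Agxt itself lay above 0. Both genes were singled out after their values were seen.

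Dhtkd1, a later lysine enzyme, had 1917 counts in the authors' deposited larger and 157 in the smaller table. The ratio of 12.2 was over 8, as for Mccc1 and Aldh6a1. Unlike those genes, Dhtkd1 has 7.20% shared words, and 1.89% of its exon bases lie in another gene. Among genes with over 5% shared words, 19.5% had a ratio over 8.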
